A study of Mus musculus with 8 samples.

Results

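The 10 immediate early genes Fos, Fosb, Jun, Junb, Egr1, Arc, Npas4, Nr4a1, Klf4 and Dusp1 were described in ventral lumbar cord of MLC/SOD1G93A and FVB mice. Members were the rows of the array whose annotated gene symbol was one of these names, which gave 10 transcript clusters (the array's unit for 1 gene), 1 for each gene, among 41345 clusters and 22180 named genes. MLC/SOD1G93A mice overexpress a mutant human SOD1 in skeletal muscle under the promoter of Myosin Light Chain, and FVB mice, the background strain, served as controls. Both genotypes were of the FVB strain and 120 days old, and each gave 4 RNA samples, each hybridized to 1 Affymetrix Mouse Gene ST array. The comparison asked whether mutant SOD1 made in muscle alters transcription in the spinal cord. The labels give neither the sex of the mice nor whether the 4 samples of a genotype came from 4 animals, and the tests therefore speak only of the scatter among these RNA samples.

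Immediate early genes are transcribed within minutes of a stimulus, without new protein synthesis, from transcription factors that already sit in the cell. In neurons and glia, calcium and growth factor signals reach CREB at cAMP response elements and the serum response factor with its ETS partners at CArG boxes. Most of the products are transcription factors that drive a later wave of genes, while others feed back on the signal, and their transcripts decay quickly, so that they are widely read as markers of recent cell activity.

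The sequences before the start of these genes were searched for the letters that CREB and related factors are known to bind. Of the 10 genes, 8 had an entry in the RefSeq promoter table (build GRCm38.p6), and Egr1 and Arc had none. Windows from 250 bases before to 50 bases after the start were searched on both strands. The CREB half-site TGACG was present in 7 of 8 windows, all but that of Jun, against 20.8% of 32851 windows in the table. The Nr4a1 window held 4 half-sites, that of Dusp1 3, those of Fos and Npas4 2 each and those of Fosb, Junb and Klf4 1 each. The full cAMP response element TGACGTCA, which counts as 2 overlapping half-sites, was found only in Dusp1, 143 bases before the start, and in 1.79% of all windows. The AP-1 site TGACTCA (5.2% of all windows), the CArG box (1.63%), the EGR site GCGTGGGCG (0.612%) and the NR4A site AAAGGTCA (1.51%) were in none of the 8, which says only that these letters do not occur in these windows. TATAAA was in 2 of 8, against 13.6%. It lay 33 bases before the start in Fos, whereas in Junb it began at the annotated start base itself. The GC content of the windows was 58.7 to 74.3%, against a median of 52.7% over the table. The 250 bases before the start are given 5′ to 3′ for 5 genes, with TGACG on either strand (CGTCA on the printed one) in capitals. Jun is shown as the gene whose arrays separated by genotype, Fos as the gene that varied most between arrays, and Nr4a1, Dusp1 and Npas4 as the contrast with several half-sites each.
Jun (chr4:95052223-95052472, minus strand): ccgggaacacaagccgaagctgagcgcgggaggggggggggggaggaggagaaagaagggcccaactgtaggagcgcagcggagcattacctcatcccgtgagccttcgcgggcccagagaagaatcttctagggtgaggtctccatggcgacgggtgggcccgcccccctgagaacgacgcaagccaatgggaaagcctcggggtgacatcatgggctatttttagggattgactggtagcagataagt
Fos (chr12:85473640-85473889, plus strand): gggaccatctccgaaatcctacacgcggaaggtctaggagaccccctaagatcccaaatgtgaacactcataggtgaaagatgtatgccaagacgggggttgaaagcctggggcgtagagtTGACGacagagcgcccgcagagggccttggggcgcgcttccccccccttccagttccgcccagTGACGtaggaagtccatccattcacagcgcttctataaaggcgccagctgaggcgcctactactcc
Nr4a1 (chr15:101266596-101266845, plus strand): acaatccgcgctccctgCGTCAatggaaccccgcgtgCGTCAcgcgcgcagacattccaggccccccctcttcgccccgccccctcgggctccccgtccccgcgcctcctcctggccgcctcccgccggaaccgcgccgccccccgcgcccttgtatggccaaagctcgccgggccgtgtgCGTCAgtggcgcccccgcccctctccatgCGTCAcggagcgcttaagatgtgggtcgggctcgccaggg
Dusp1 (chr17:26508473-26508722, minus strand): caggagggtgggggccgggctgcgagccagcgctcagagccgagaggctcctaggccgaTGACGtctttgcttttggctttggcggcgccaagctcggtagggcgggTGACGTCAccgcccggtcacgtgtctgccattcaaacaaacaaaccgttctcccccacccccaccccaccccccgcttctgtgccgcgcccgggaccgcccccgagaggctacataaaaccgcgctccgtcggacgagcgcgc
Npas4 (chr19:4989972-4990221, minus strand): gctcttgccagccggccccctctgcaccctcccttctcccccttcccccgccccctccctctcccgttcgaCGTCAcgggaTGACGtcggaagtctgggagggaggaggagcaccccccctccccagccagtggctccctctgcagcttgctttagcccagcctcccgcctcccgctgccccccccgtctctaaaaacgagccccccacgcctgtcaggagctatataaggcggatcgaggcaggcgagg

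As a group, the 10 genes lay slightly lower in MLC/SOD1G93A than in FVB cord, and no gene passed the adjusted threshold. The mean signal was lower in MLC/SOD1G93A for 9 of 10 genes, against 48.8% of all clusters, and Nr4a1 was the exception. The median difference over the 10 genes (MLC/SOD1G93A minus FVB) was −0.15 on the log2 scale, against 0.0041 over all clusters. Only Jun reached an unadjusted limma p under 0.05 (3.08% of all clusters did so in the lower direction and 3.61% in the higher), and only Jun had all MLC/SOD1G93A arrays under all FVB arrays (2.1% of all clusters, and 2.11% the other way). After Benjamini-Hochberg adjustment over all clusters at 0.05, limma called 0 of 41345, or 0%, with a lowest adjusted p of 0.359, and analysis of variance also called 0. At an unadjusted p under 0.05, 1275 clusters were lower and 1494 higher. No member passed the thresholds of the study (unadjusted p under 0.05 and a fold over 1.5), which 0.343% of clusters passed as lower and 0.626% as higher.

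**Figure D1:**
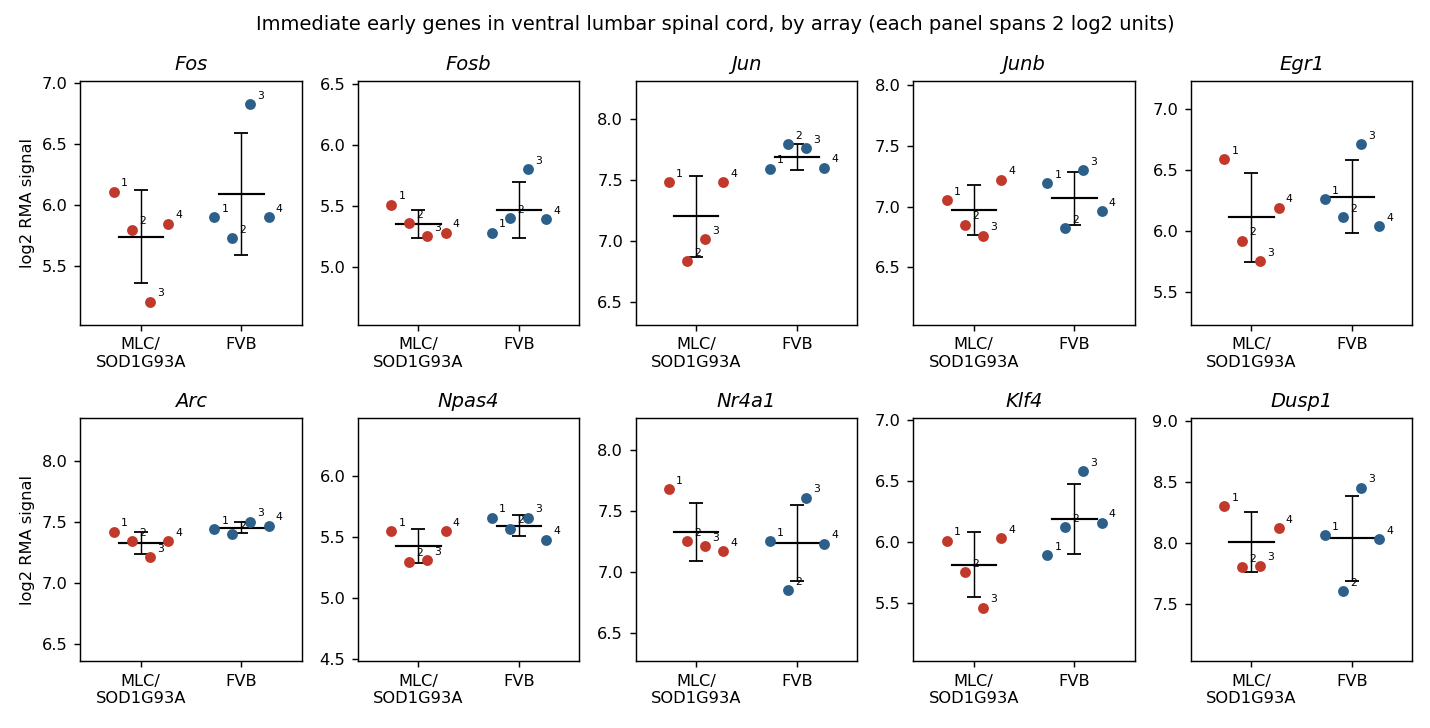
Log2 RMA signal of each immediate early gene on each array, with MLC/SOD1G93A in red at the left and FVB in blue at the right of each panel, numbered by replicate. Bars show the mean and SD of 4 arrays, and every panel spans 2 log2 units. Jun is the only gene whose MLC/SOD1G93A arrays (up to 7.48) all lie under its FVB arrays (from 7.59), and FVB replicate 3 is the highest array in 8 of 10 panels.

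Fos, Fosb, Jun and Junb encode subunits of AP-1, a dimeric transcription factor in which a Fos protein pairs with a Jun protein. Jun, which can also pair with itself and is a classical marker of injured neurons, had the largest difference of the 10 genes. Its log2 signal (transcript cluster 17427312) was 7.48, 6.83, 7.01 and 7.48 in MLC/SOD1G93A replicates 1 to 4, against 7.59, 7.79, 7.76 and 7.6 in FVB. The MLC/SOD1G93A arrays split into a pair just under the FVB range (replicates 1 and 4) and a pair well below it (replicates 2 and 3), whereas the FVB arrays were tightly grouped. The means were 7.2 ± 0.33 in MLC/SOD1G93A and 7.68 ± 0.11 in FVB (SD, n = 4 each). The difference was −0.48 ± 0.16 (SE; 95% interval −0.84 to −0.12), a 1.4-fold lower level in MLC/SOD1G93A cord. The unadjusted limma p was 0.0144 and the adjusted p 0.684. The exact two-sided permutation p was 0.0286, the smallest that 4 against 4 arrays allow. Without each array in turn, the difference of Jun lay between −0.58 and −0.36, with an unadjusted limma p under 0.05 each time.

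Fos, the main partner of Jun, varied more than any other member. Its signal (17277387) was 6.11, 5.8, 5.21 and 5.85 in MLC/SOD1G93A, against 5.9, 5.73, 6.83 and 5.9 in FVB. A single array stood out on each side, FVB replicate 3 above and MLC/SOD1G93A replicate 3 below, and the other 6 arrays lay between 5.73 and 6.11 with the genotypes mixed. The difference was −0.35 ± 0.27 (SE; 95% interval −0.97 to 0.27; limma adjusted p = 0.854, exact permutation p = 0.429). Without FVB replicate 3 it was −0.1.

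Fosb, a Fos relative whose truncated product builds up in chronically stimulated neurons, had a signal (17487211) of 5.51, 5.36, 5.25 and 5.28 in MLC/SOD1G93A and 5.28, 5.4, 5.8 and 5.39 in FVB. The groups overlapped, and only FVB replicate 3 lay above the rest. The difference was −0.12 ± 0.12 (SE; limma adjusted p = 0.896, exact permutation p = 0.4). It was −0.005 without FVB replicate 3 and −0.18 without FVB replicate 1. Junb, a Jun family member that can oppose Jun at its targets, measured 7.05, 6.85, 6.76 and 7.22 (17511259) in MLC/SOD1G93A and 7.19, 6.82, 7.3 and 6.96 in FVB. Both genotypes covered nearly the same range. The difference of Junb was −0.1 ± 0.14 (SE; limma adjusted p = 0.921, exact permutation p = 0.571). It was −0.18 without MLC/SOD1G93A replicate 4 and −0.021 without FVB replicate 3. Of the AP-1 genes, only Jun had its arrays separated by genotype.

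Egr1, Klf4, Npas4 and Nr4a1 encode transcription factors of other families. Klf4, a Krüppel-like zinc finger factor of vascular, epithelial and stem cells that also limits axon growth in neurons, came next to Jun in size. Its signal (17425401) was 6.01, 5.75, 5.46 and 6.03 in MLC/SOD1G93A, against 5.89, 6.12, 6.58 and 6.16 in FVB. Only FVB replicate 1 reached into the MLC/SOD1G93A range, and the means were 5.81 ± 0.27 in MLC/SOD1G93A and 6.19 ± 0.29 in FVB (SD, n = 4 each). The difference was −0.37 ± 0.17 (SE; 95% interval −0.77 to 0.02), 1.3-fold lower in MLC/SOD1G93A, with a limma adjusted p of 0.754 (unadjusted 0.0625) and an exact permutation p of 0.114. The difference of Klf4 was −0.25 without FVB replicate 3 and −0.47 without FVB replicate 1.

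Egr1, a zinc finger factor induced by growth factors and synaptic activity, had a signal (17349514) of 6.59, 5.92, 5.75 and 6.19 in MLC/SOD1G93A and 6.26, 6.11, 6.71 and 6.04 in FVB. Its highest arrays, FVB replicate 3 and MLC/SOD1G93A replicate 1, belonged to different genotypes. The difference was −0.17 ± 0.21 (SE; 95% interval −0.65 to 0.31; limma adjusted p = 0.911, exact permutation p = 0.486). It was −0.027 without FVB replicate 3 and −0.33 without MLC/SOD1G93A replicate 1.

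Npas4, a neuron-restricted factor induced by calcium entry that tunes inhibitory synapses, measured 5.55, 5.3, 5.31 and 5.55 (17361435) in MLC/SOD1G93A, against 5.66, 5.57, 5.66 and 5.48 in FVB. Only FVB replicate 4 lay within the MLC/SOD1G93A range. The whole span of Npas4 over 8 arrays was 0.36, and the difference was −0.17 ± 0.09 (SE; 95% interval −0.37 to 0.04; limma adjusted p = 0.78, exact permutation p = 0.114).

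Nr4a1, an orphan nuclear receptor induced by the same signals, was the one member with a higher mean in MLC/SOD1G93A. It measured 7.68, 7.25, 7.21 and 7.17 (17315178) in MLC/SOD1G93A and 7.25, 6.85, 7.61 and 7.23 in FVB. A single high array in each genotype and a single low FVB array set its spread, and the remaining 5 arrays were alike. The difference was 0.09 ± 0.18 (SE; 95% interval −0.31 to 0.5; limma adjusted p = 0.943, exact permutation p = 0.714), and it was −0.025 without MLC/SOD1G93A replicate 1, −0.035 without FVB replicate 2 and 0.22 without FVB replicate 3.

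Arc and Dusp1 encode no transcription factor. Arc, a synaptic protein that removes AMPA receptors from the membrane, was the steadiest member. Its signal (17317983) was 7.42, 7.34, 7.21 and 7.34 in MLC/SOD1G93A, against 7.44, 7.4, 7.5 and 7.47 in FVB. The genotypes were separate but for MLC/SOD1G93A replicate 1, which lay just above FVB replicate 2. The difference was −0.12 ± 0.07 (SE; 95% interval −0.28 to 0.04; limma adjusted p = 0.791, exact permutation p = 0.0571). The unadjusted p of Arc was 0.116 by limma and 0.0435 by the analysis of variance that the study used. That analysis of variance was the only alternative with an unadjusted p of Arc under 0.05.

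Dusp1, a nuclear phosphatase that switches off the MAP kinases behind the response, measured 8.3, 7.8, 7.81 and 8.12 (17342642) in MLC/SOD1G93A and 8.06, 7.6, 8.45 and 8.03 in FVB. The lowest and the highest array were both FVB. The difference was −0.03 ± 0.19 (SE; 95% interval −0.46 to 0.4; limma adjusted p = 0.986, exact permutation p = 0.943), and it was 0.11 without FVB replicate 3 and −0.17 without FVB replicate 2. The 95% intervals of Fos, Junb, Egr1, Nr4a1, Klf4 and Dusp1 reached 0.4 or more in size on at least 1 side, so a difference of that size may not have been detectable with 4 arrays per genotype.

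**Figure D2:**
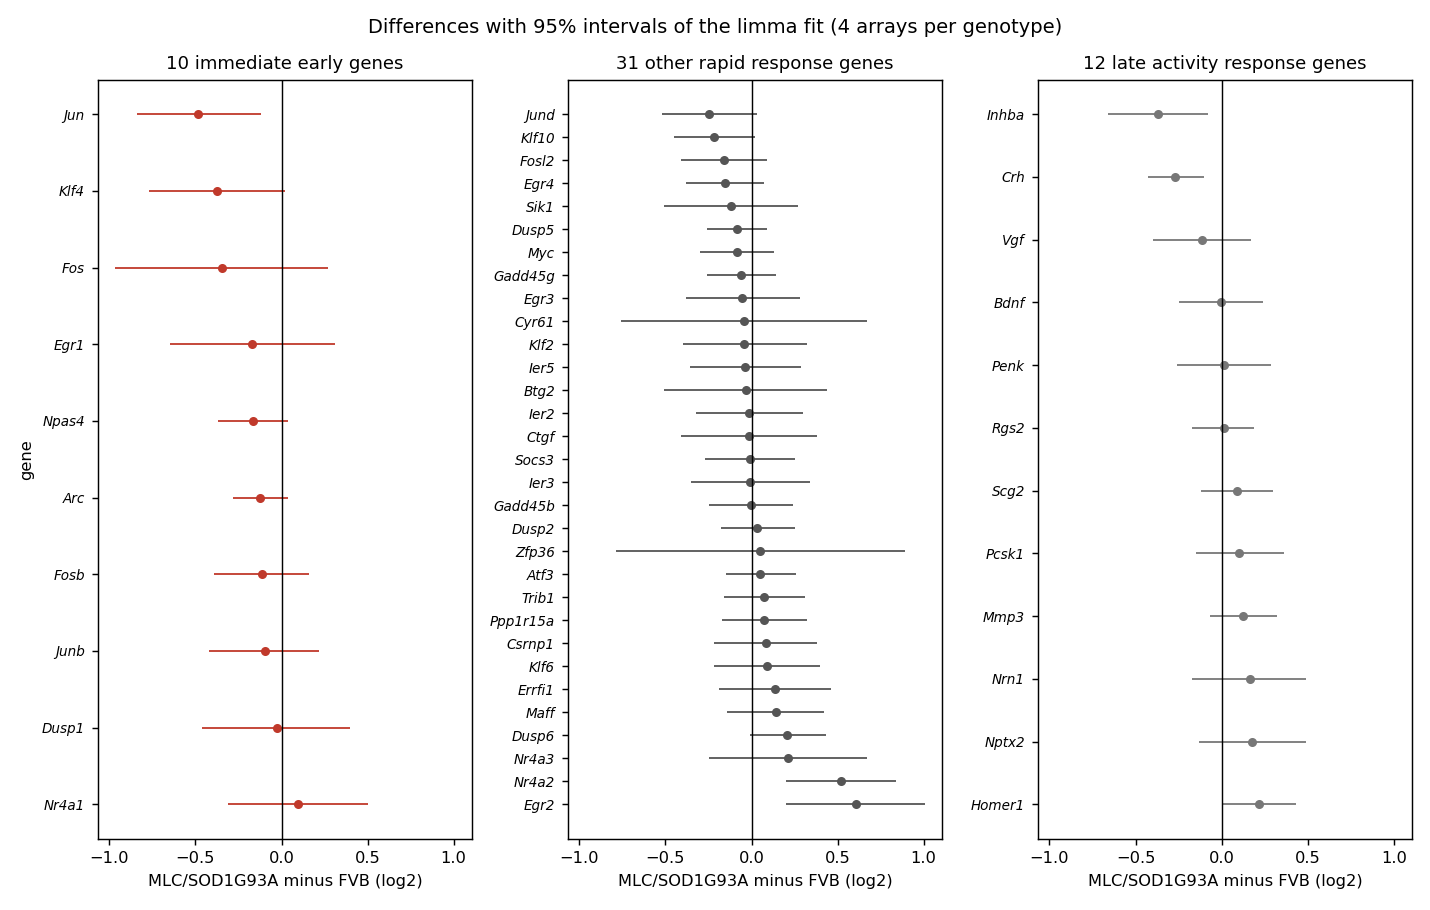
Difference of each gene (MLC/SOD1G93A minus FVB, log2) with the 95% interval of the limma fit, for the 10 immediate early genes (red), 31 other rapid response genes and 12 late activity response genes (grey). The vertical line marks no difference. Among the members only the interval of Jun (−0.84 to −0.12) misses 0, whereas Nr4a2 (0.52) and Egr2 (0.61) lie to its right among the other rapid response genes.

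The arrays that stood high or low were largely the same from member to member. FVB replicate 3 had the highest signal for 8 of 10 genes, all but Jun and Nr4a1, and MLC/SOD1G93A replicate 3 the lowest for 6 of 10 (Fos, Fosb, Junb, Egr1, Arc and Klf4). MLC/SOD1G93A replicate 1 was the highest array for Nr4a1 and among the top 2 for 5 genes, so it stood with the high arrays, whereas MLC/SOD1G93A replicate 2 was among the bottom 2 for 6 genes. The mean log2 signal of the 10 genes was 6.77, 6.42, 6.3 and 6.62 in MLC/SOD1G93A replicates 1 to 4, against 6.65, 6.54, 7.02 and 6.63 in FVB. The group means were 6.53 ± 0.21 in MLC/SOD1G93A and 6.71 ± 0.21 in FVB (SD, n = 4 each), so the difference of −0.18 was smaller than the spread between arrays. Without FVB replicate 3 the mean difference was −0.078, and without MLC/SOD1G93A replicate 3 it was −0.1. Without MLC/SOD1G93A replicate 1 it was −0.26.

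**Figure D3:**
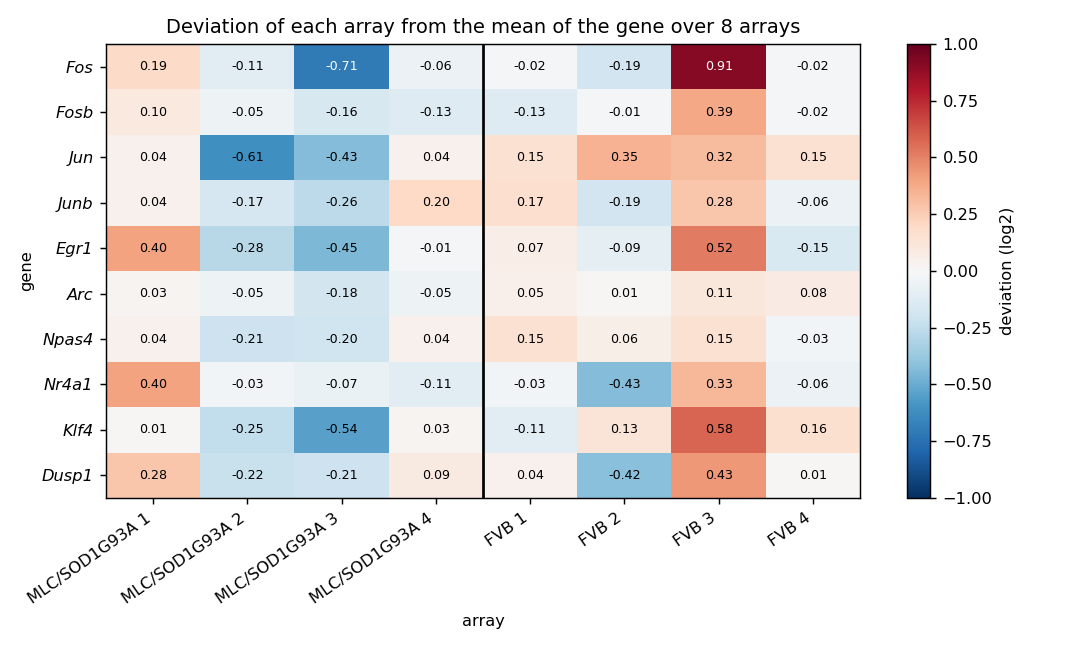
Deviation of each array (columns) from the mean of each gene over 8 arrays (rows), in log2 units, with MLC/SOD1G93A left of the line and FVB right of it. FVB replicate 3 is above the mean for every gene (0.91 for Fos, 0.58 for Klf4), and MLC/SOD1G93A replicate 3 is below it for every gene (−0.71 for Fos, −0.54 for Klf4).

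The size of this variation set some members apart from others. The SD within genotypes was 0.44 for Fos, 0.34 for Egr1, 0.3 for Dusp1 and 0.28 for both Nr4a1 and Klf4, against a median of 0.13 for the clusters at or above the median signal. Fos thus lay at the 97th percentile of those clusters. Arc, by contrast, had an SD of 0.07, at the 12th percentile, and Npas4 one of 0.12, at the 44th. The mean signals of Npas4 and Fosb lay at the 53rd and 52nd percentile of all clusters, near the median, and that of Arc at the 81st. Whether its lower signal bears on the SD of Npas4 was not tested.

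After centring on the genotype means, Egr1 followed the mean of the other 9 members most closely (r = 0.95 over 8 arrays), then Fos (0.92) and Dusp1 (0.89), and Jun least (0.54). These values describe genes read on the same arrays and carry no test. Over the 45 pairs of members, uncentred, 44 correlations were positive, with a median r of 0.7. Without the 2 arrays farthest from the median of the first gene of the pair, the median r was 0.35, with 37 of 45 positive. By the second gene it was 0.52, with 42 of 45 positive. Taking the lower of both values, 36 of 45 were positive and 9 were 0 or negative, with a median r of 0.27. Leaving out the farthest arrays narrows the range of a gene, which by itself lowers r. These values therefore do not tell how far the correlations rested on those arrays. The r of Fos and Klf4, for example, was 0.89 with all arrays and 0.04 without the 2 farthest. Only Fos and Egr1 passed the adjustment over the 45 pairs by Pearson (r = 0.89, exact permutation p = 0.000893, adjusted p = 0.0402). Spearman's rho for this pair was 0.81 (exact permutation p = 0.0218, adjusted p = 0.122), and no pair passed by rho. Without the 2 arrays farthest from the median of Fos, r was 0.83. Jun and Npas4 had the highest r (0.9, exact permutation p = 0.00764, adjusted p = 0.0588; rho = 0.74, exact p = 0.0458, adjusted p = 0.172), which was 0.38 without the 2 arrays farthest from the median of Jun. Jun and Nr4a1 had an r of 0 and a rho of −0.14.

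By the same measure, the genes whose centred values were most like the mean of the members, among 13204 genes at or above the median signal, were Arntl (r = 0.987 over 8 arrays), Wwc2 (0.982), Nedd4 (0.976), Vstm4 (0.976) and Creb3l1 (0.971). Being the highest of 13204, these correlations are a description. Arntl, the clock activator BMAL1, measured 7.14, 6.97, 6.86 and 7.06 in MLC/SOD1G93A and 7.2, 7.15, 7.39 and 7.22 in FVB. Its genotypes were separate, with a difference of −0.23 ± 0.09 (SE; limma adjusted p = 0.71, exact permutation p = 0.0286). Nedd4, a ubiquitin ligase, and Creb3l1, a transcription factor bound to the endoplasmic reticulum, had differences of −0.01 and −0.04 with adjusted p of 0.981 and 0.967.

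Markers of some other cells were highest on the same array as the members, and markers of position along the cord were lowest there. In bulk tissue, fewer cells of a type and less RNA per cell cannot be told apart. The mean of 12 endothelial and mural cell markers was 6.98 to 7.23 in MLC/SOD1G93A and 7.15 to 7.61 in FVB, with the highest value again on FVB replicate 3. Of these markers 11 were lower and 1 higher in MLC/SOD1G93A, 2 of them at an unadjusted p under 0.05, the brain endothelial transporter gene Slco1a4 (−0.44 ± 0.09, SE; adjusted p = 0.565) and the VEGF receptor gene Kdr (−0.41 ± 0.13, SE; adjusted p = 0.684). The mean of 12 markers of meninges and fibroblasts was 7.17 to 7.8 in MLC/SOD1G93A and 7.5 to 8.24 in FVB, lowest on MLC/SOD1G93A replicate 3 and highest on FVB replicate 3. Of these, 9 were lower and 3 higher, and they were not of one direction: Ptgds, a prostaglandin synthase of the meninges, differed by −0.64 (adjusted p = 0.723) and Dcn, a matrix proteoglycan, by 0.51 (adjusted p = 0.709). The means of oligodendrocyte (9.72), microglia (6.94) and skeletal muscle markers (5.29) were also highest on FVB replicate 3. The means of neuron (9.61) and motor neuron markers (6.77) were lowest there, and that of astrocyte markers was highest on FVB replicate 1 (9.29). Hox genes of caudal body levels ran opposite to the members on these arrays. Their mean over 10 genes was 6.16 to 6.76 in MLC/SOD1G93A and 5.21 to 6.35 in FVB, with 9 genes higher (8 of them at an unadjusted p under 0.05) and 1 lower. Here FVB replicate 3 was the lowest array and MLC/SOD1G93A replicate 3 the highest. Not all other arrays mirrored the members: MLC/SOD1G93A replicate 2, low for the members (6.42), also had the lowest Hox mean of its genotype (6.16).

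The means of the lists used as covariates differed between genotypes themselves, by 0.72 for the Hox genes, −0.19 for the endothelial and mural markers and −0.28 for the meningeal markers. Each covariate can therefore also take up part of a genotype difference. With the mean of the Hox genes as a covariate, the mean difference of the members was 0.031 and 4 of 10 were lower. With the endothelial and mural markers it was 0.025, again with 4 of 10 lower, and with the meningeal markers −0.021, with 6 of 10 lower. Jun remained lower under all of these, at −0.43 (limma adjusted p = 0.947) with the Hox genes, −0.35 (adjusted p = 0.903) with the endothelial and mural markers and −0.34 (adjusted p = 0.861) with the meningeal markers. The unadjusted limma p of Jun was then above 0.05 with the Hox genes and with the endothelial and mural markers. Klf4 was at −0.12 with the Hox genes, −0.12 with the endothelial and mural markers and −0.16 with the meningeal markers. Glial markers also had lower means in MLC/SOD1G93A. Of 9 oligodendrocyte markers 9 were lower, 7 at an unadjusted p under 0.05, with a median difference of −0.36 and list means of 9.14 to 9.43 in MLC/SOD1G93A and 9.5 to 9.72 in FVB. Of 7 microglia markers 7 were lower, 4 at an unadjusted p under 0.05 (median −0.27; 6.57 to 6.64 in MLC/SOD1G93A and 6.64 to 6.94 in FVB), and of 7 astrocyte markers 6 were lower, 3 at an unadjusted p under 0.05 (median −0.12; 8.75 to 9.1 in MLC/SOD1G93A and 9.15 to 9.29 in FVB). The part of the glial markers in the values of the members was not tested. Of 10 neuron markers 4 were lower and 6 higher, none at an unadjusted p under 0.05, and their mean was 9.68 to 9.75 in MLC/SOD1G93A and 9.61 to 9.75 in FVB.

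**Figure D4:**
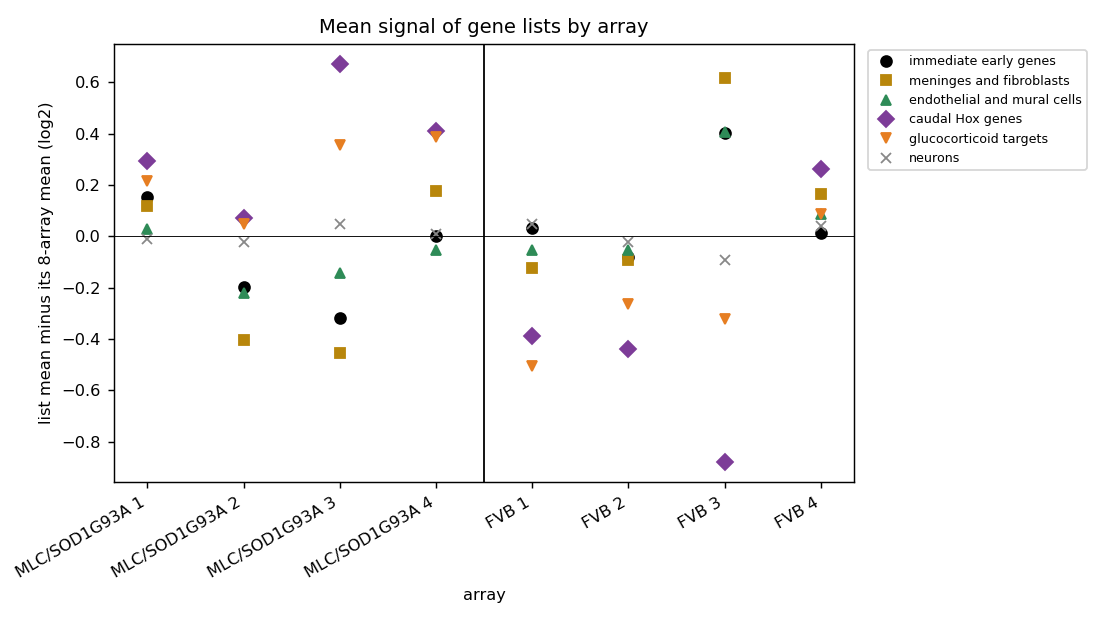
Mean signal of each gene list on each array minus its mean over 8 arrays (log2), with MLC/SOD1G93A left of the line and FVB right of it. The immediate early genes (black), the endothelial and mural markers and the meningeal markers are all highest on FVB replicate 3, where the caudal Hox genes are lowest (5.21 on the log2 scale), and the neuron markers stay near 0.

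**Figure D5:**
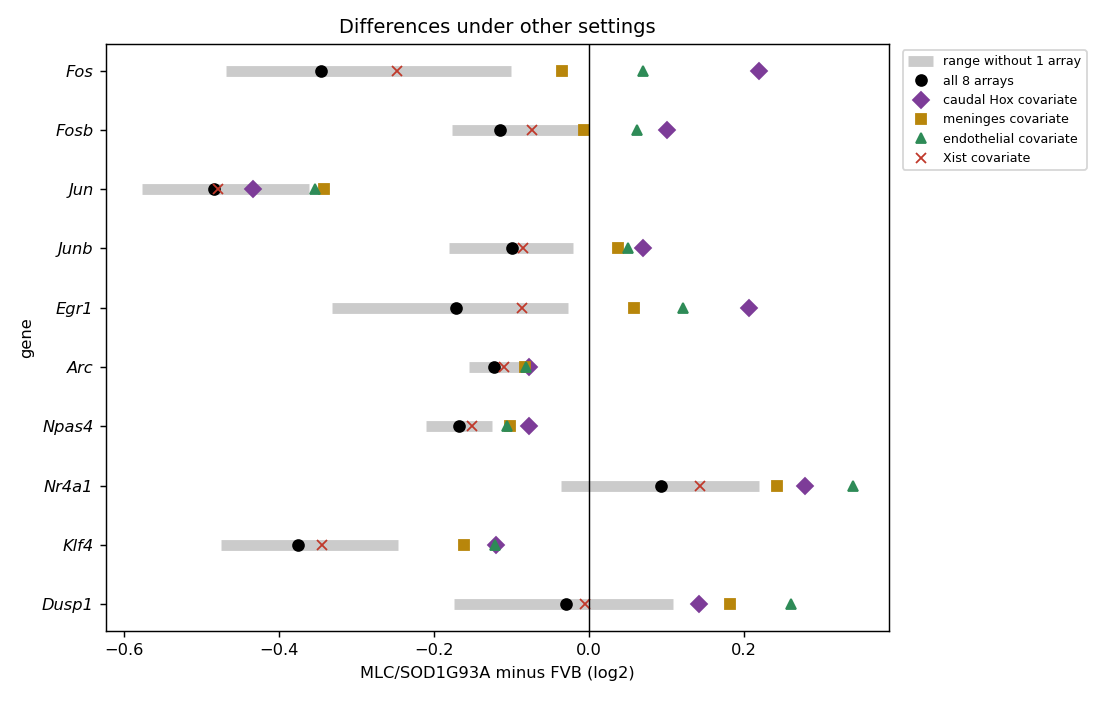
Difference of each immediate early gene (MLC/SOD1G93A minus FVB, log2) with all 8 arrays (black), its range without each array in turn (grey bar) and its value with a covariate (coloured symbols). Jun stays left of 0 under every setting drawn, whereas Fos, Fosb, Junb, Egr1 and Dusp1 lie on the right with the Hox or the endothelial covariate.

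Of 31 other rapid response genes measured (of 32 listed, Fosl1 being unmatched), 18 were lower and 13 higher, with a median difference of −0.0096, and whether they differed from the members was not tested. Their mean signal was 6.49, 6.28, 6.26 and 6.36 in MLC/SOD1G93A replicates 1 to 4 and 6.3, 6.12, 6.52 and 6.33 in FVB, so that FVB replicate 3 and MLC/SOD1G93A replicate 1 were again the highest arrays. None was lower and 2 were higher at an unadjusted p under 0.05, and these were close relatives of members. Nr4a2, a nuclear receptor of the Nr4a1 family, measured 7.34, 7.37, 7.04 and 7.28 in MLC/SOD1G93A and 6.68, 6.44, 6.75 and 7.07 in FVB. The difference was 0.52 ± 0.14 (SE; limma adjusted p = 0.684, exact permutation p = 0.0571), 1.44-fold higher in MLC/SOD1G93A. Egr2, an Egr1 relative that directs myelination in Schwann cells, measured 7.13, 6.86, 6.46 and 7.23 in MLC/SOD1G93A and 6.17, 6.22, 6.28 and 6.6 in FVB. The difference was 0.61 ± 0.18 (SE; limma adjusted p = 0.684, exact permutation p = 0.0571), 1.52-fold higher. For both, 1 array of each genotype overlapped the other group, and the difference between these relatives and Nr4a1 or Egr1 was not tested. Both are on the list of changed genes that the study drew from these samples, so they are not independent evidence of a direction. The mean of 8 Schwann cell markers, which moved the same way as Egr2, was 7.57 to 8.13 in MLC/SOD1G93A and 7.17 to 7.64 in FVB, with 8 of 8 higher and 7 at an unadjusted p under 0.05. Several of these markers are also on that list of the study, and all were chosen with earlier results of these data known. The part of these markers in the value of Egr2 was not tested.

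Genes of the later wave, which immediate early factors help to induce in neurons, were mixed. Of 12 measured, 4 were lower and 8 higher, with a median difference of 0.051. At an unadjusted p under 0.05, 2 were lower. Inhba, an activin subunit induced by synaptic activity, measured 5.01, 5.27, 5.03 and 5.21 in MLC/SOD1G93A and 5.81, 5.26, 5.51 and 5.42 in FVB, a difference of −0.37 ± 0.13 (SE; limma adjusted p = 0.684, exact permutation p = 0.0571). Crh, a stress neuropeptide, differed by −0.27 ± 0.07 (SE; limma adjusted p = 0.684, exact permutation p = 0.0286), with signals of 3.41 to 3.54 in MLC/SOD1G93A and 3.69 to 3.88 in FVB that lay in the dim range of the array.

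The kinases and transcription factors upstream of the members varied little. Of 25 measured (of 31 listed), 15 were lower and 10 higher, with a median difference of −0.0085. Only Elk3, an ETS partner of the serum response factor that is also abundant in endothelium, passed an unadjusted p under 0.05. It measured 6.4, 6.32, 6.47 and 6.34 in MLC/SOD1G93A, against 6.55, 6.61, 6.69 and 6.54 in FVB, with the genotypes apart. The difference was −0.22 ± 0.07 (SE; limma adjusted p = 0.684, exact permutation p = 0.0286). Prkaca, a catalytic subunit of the kinase that activates CREB, had the next lowest p, with a difference of −0.14 and an adjusted p of 0.804.

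Targets of the glucocorticoid receptor, which responds to circulating stress hormone, had higher means in MLC/SOD1G93A in 10 of 10 cases, 8 of them at an unadjusted p under 0.05, with a median difference of 0.48. Over all clusters, 21181 of 41345 had a higher mean, and 3.61% were higher at an unadjusted p under 0.05. Tsc22d3 (GILZ), an anti-inflammatory target, differed by 0.34 (limma adjusted p = 0.565, exact permutation p = 0.0286). Hif3a differed by 0.64, Zbtb16 by 0.66 and Sult1a1 by 0.62, each with an adjusted p of 0.684 and with the genotypes apart. The genotypes were apart for 4 of the 10 targets, against 2.11% of all clusters in the higher direction. Hif3a and Zbtb16 are on the list of changed genes that the study drew from these samples, so they are not independent evidence of a direction. The other targets are not independent evidence either. The whole list was chosen with earlier results of these data known, so its counts are a description. The mean of the list was 7.72 to 8.06 in MLC/SOD1G93A and 7.17 to 7.76 in FVB, and the relation of these values to the immediate early genes was not tested.

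The labels and arrays were checked as follows. Signals correlated between arrays at 0.978 to 0.986 within a genotype and 0.977 to 0.987 between genotypes. Sod1, the mouse gene, was at 10.78 to 10.9 in MLC/SOD1G93A and 10.8 to 10.95 in FVB, and as a row for the mouse gene in cord it does not check a muscle transgene. Xist, which coats the silenced X chromosome of females, had signals of at least 10.38 on MLC/SOD1G93A replicates 3 and 4 and FVB replicate 4 and of at most 4.5 on the others. Of genes on the Y chromosome, Uty was at 8.16, 8.09, 3.78 and 3.33 in MLC/SOD1G93A and 8.01, 7.9, 8.04 and 3.59 in FVB. Eif2s3y and Kdm5d were likewise low only on the arrays with high Xist. By these genes MLC/SOD1G93A replicates 3 and 4 and FVB replicate 4 read as female and the others as male. The genotypes were thus not balanced for sex. MLC/SOD1G93A replicate 3 and FVB replicate 3, the lowest and highest arrays by the mean of the members, differed in it. With Xist as a covariate, the mean difference of the members was −0.14 and 9 of 10 remained lower. The mean of 9 sensory ganglion markers was 6.29 or above on MLC/SOD1G93A replicates 1 and 2 and FVB replicates 2 and 4, and at most 5.06 on the rest. With this mean as a covariate, the mean difference of the members was −0.18. The mean of 7 motor neuron markers, which the labelled tissue should hold, was 6.81 to 7.17 in MLC/SOD1G93A and 6.77 to 7.13 in FVB, with Mnx1 in the dim range of the array (means of 3.97 in MLC/SOD1G93A and 4.04 in FVB), and without another tissue on these arrays the label was not tested.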

How the data were processed

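The authors deposited log2 signals, with 1 value for each transcript cluster on each array. Per the methods and the submitters' notes, scanned intensities were summarised by RMA with sketch quantile normalization (Affymetrix Expression Console in the notes, Transcriptome Analysis Console in the methods). Software versions, filters and the genome build of the array are not given in the sources used here. The RMA steps make the arrays' distributions nearly equal (array medians 5.33 to 5.37), so a shift shared by most transcripts would not show, and signals of different genes are not on 1 scale. Arrays have no read depth, and their number limits the precision.

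All 41345 clusters entered 1 unpaired limma 3.58.1 fit (lmFit, then eBayes, R 4.3.3) with genotype as the only term, with Benjamini-Hochberg adjustment over all clusters. In the platform annotation, 23521 clusters had 1 symbol, 1820 had more than 1, and 16004 were unnamed. The row with the highest mean among 1-symbol rows stood for a gene. Single genes were also tested by exact two-sided permutation over 70 relabellings, and correlations by exact permutation of the arrays (scipy 1.17.1). Percentiles of spread were taken over clusters at or above the median signal of 5.33, where all 10 members lay.

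Named genes were all members, the genes of each pathway list with an unadjusted p under 0.05 (at most 4 and at least 2, by lowest p), at most 2 of a cell type list that moved with a member, Sod1, Xist and the 5 most alike genes. The members and lists were chosen with earlier results of these data known. Skeletal muscle markers had means per array of 4.84 to 4.96 in MLC/SOD1G93A and 4.73 to 5.29 in FVB. The value of 5.29 was FVB replicate 3, and the other FVB arrays were at most 4.83. None of the 6 blood markers was matched. The fit was tested on simulated data. Alternatives were other normalizations, a filter on dim clusters, other variance models, analysis of variance, covariates and leaving out each array. The endothelial covariate was chosen after seeing the data.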

Additional observations from a re-analysis of the deposited data

Results flagged for a closer look

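Within groups of 4 arrays, 42 sets of values (members, other named genes and list means in each genotype) were examined for an array far from the others, and 2 were found, about as many as chance gives at 1 in 20. Nr4a1 on MLC/SOD1G93A replicate 1 was at 7.68, against 7.25 for the nearest MLC/SOD1G93A array, a gap of 0.84 of the range of that genotype. Fos on FVB replicate 3 was at 6.83, against 5.9 for the nearest FVB array, a gap of 0.844 of the range. The cause was not tested in either case.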

How the results depend on the processing

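No cluster was called under any of 20 alternatives, and none of the 210 values of members under alternatives passed the adjusted threshold. Of those 210 values 19 changed sign, 13 of them with a covariate and 5 without 1 array. The mean difference of the immediate early genes kept its sign except with the caudal Hox covariate (0.0309, 4 of 10 lower) and the endothelial and mural covariate (0.0246, 4 of 10 lower). Without each array in turn it lay between −0.263 and −0.0784, with 8 to 10 genes lower. With the Hox covariate Fos was at 0.22, Fosb 0.101, Junb 0.0692, Egr1 0.206 and Dusp1 0.142. With the endothelial covariate Fos was at 0.0698, Fosb 0.0625, Junb 0.0507, Egr1 0.122 and Dusp1 0.261, and with the meningeal covariate Junb was at 0.0373, Egr1 0.0576 and Dusp1 0.182. Dusp1 was at 0.00857 with array weights. Without 1 array, Dusp1 ranged from −0.174 to 0.109 (0.0395 without MLC/SOD1G93A replicate 2, 0.0361 without MLC/SOD1G93A replicate 3) and Nr4a1 from −0.0354 to 0.219 (−0.025 without MLC/SOD1G93A replicate 1). Why these values moved was not tested. Jun kept its sign in all 21 alternatives, at an unadjusted p of 0.00722 to 0.121. At the thresholds of the study, 259 clusters were higher and 142 lower; these counts were 89 and 47 over clusters at or above the median signal, where fewer were tested, 553 and 304 with the Hox covariate, 91 lower by analysis of variance, and 271 to 379 higher and 144 to 219 lower without each array in turn, the most lower being without FVB replicate 4.

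Replicate numbers are shared between genotypes, but deviations of same-numbered arrays correlated at −0.04, 0.18, −0.08 and 0.24, so the numbers were not taken as pairs. With the replicate number as a block, 0 clusters were called, 287 were higher and 167 lower at the thresholds of the study, the mean difference was −0.182 with 9 of 10 genes lower, and Jun was at −0.484 with an unadjusted p of 0.037.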

Other observations

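Among the other rapid response genes, 2 that were named after their values were seen had the high arrays of the members and nearly equal genotype means. Zfp36, which speeds the decay of cytokine mRNAs, measured 7.22, 5.9, 6.2 and 6.32 in MLC/SOD1G93A and 6.05, 5.93, 7.31 and 6.15 in FVB, a difference of 0.05 ± 0.37 (SE; limma adjusted p = 0.988, exact permutation p = 0.8). Cyr61, a matrix protein induced by growth factors, measured 6.93, 6.11, 5.89 and 6.22 in MLC/SOD1G93A and 6.17, 5.77, 7.12 and 6.27 in FVB, a difference of −0.04 ± 0.31 (SE; limma adjusted p = 0.986, exact permutation p = 0.857). In both, MLC/SOD1G93A replicate 1 and FVB replicate 3 were the highest arrays of their genotype, as they were for Egr1, Nr4a1 and Dusp1.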
